A study of Mus musculus with 24 samples.

Results

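The transcripts described here are those of 9 protein-coding genes, Dppa3, Cthrc1, Cox6a2, Ahsg, Akap4, BC049730, Ctxn3, A230065H16Rik and Dio3, of 21532 genes listed in both expression tables of a study of mouse spermatogonia. They were selected on measured values from these libraries: averaged over 2 cell fractions, each gene was higher in Zbtb16 null than in wild-type (WT) cells and lower in Sox3 conditional knockout (cKO) than in WT cells. The genotype differences of the 9 genes are therefore given below as a description, without a test. RNA was sequenced from testis cells of mice at postnatal day 7 on a C57BL/6J background. Magnetic sorting gave a THY1+ fraction, meant to hold undifferentiated spermatogonia (uSPG), and a KIT+ fraction, meant to hold differentiating spermatogonia (dSPG). The Zbtb16 table compared WT mice with mice homozygous for the luxoid allele of Zbtb16 (Zbtb16 lu/lu, "null"), a mutation carried in all cells. The Sox3 table compared WT mice with mice in which a floxed Sox3 allele was deleted by Ddx4-Cre, a driver active in germ cells. Each of the 8 groups of genotype and fraction had 3 libraries, and the testes of 3 mice were pooled for each isolation. A p-value below measures the spread between such pools.

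ZBTB16 (PLZF) is a zinc finger transcription factor, able to activate and to repress, that maintains undifferentiated spermatogonia, and SOX3 is a transcription factor of the SOXB1 family that acts in spermatogonia committed to differentiation. Loss of either protein disturbs spermatogenesis in mice. The 9 genes belong to no common pathway. Dppa3 (Stella) is known from primordial germ cells and oocytes, and its protein is linked to DNA methylation. CTHRC1 is a secreted glycoprotein that acts with Wnt receptors of the planar cell polarity branch. COX6A2 is the heart and muscle form of a cytochrome c oxidase subunit. Ahsg encodes fetuin-A, a plasma protein made by the liver that limits calcification. AKAP4 is the main scaffold protein of the fibrous sheath of the sperm tail. DIO3 is the deiodinase that inactivates thyroid hormone, and its gene is imprinted. CTXN3 is a small membrane protein of the cortexin family, and A230065H16Rik is listed in current annotation as Lbhd2.

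All values are FPKM, the fragments of a gene scaled to the length of its transcript and to the mapped reads of the library. The files hold no read counts, but the spacing of the low values gave the number of mapped reads, which was 25.93 to 35.17 M in the Zbtb16 table. Libraries of replicate 1 of the Sox3 table had 28.23 to 31.86 M and those of replicates 2 and 3 had 11 to 14.9 M. For each of the 9 genes a transcript length was then fitted so that its values in the 24 libraries became whole reads. They did so within a tolerance of 0.25 reads, which is no independent check of the read numbers. Zbtb16 itself was at 52.1 ± 8.93 FPKM (SD, n = 3) in WT and 17.1 ± 1.33 in null THY1+ cells. Sox3 was at 6.28 to 24.4 FPKM in the 6 WT libraries of its own table and at 0 to 0.0820 in the 6 cKO libraries, which checks the genotype labels. For the WT samples beside the Sox3 cKO, Thy1 and Kit contradict the labelled fraction. Samples labelled THY1+ had 0.213 to 0.254 FPKM of Thy1 and 45.6 to 80.1 of Kit, and samples labelled KIT+ had 3.59 to 4.06 of Thy1 and 13.0 to 18.8 of Kit. In the other groups Thy1 was high in THY1+ and Kit in KIT+ libraries. Macrophage markers (7 genes) went with Thy1. They summed to 893 to 1135 FPKM in WT samples labelled KIT+ and 6.63 to 7.12 in those labelled THY1+. In cKO libraries the sums were 929 to 1065 in THY1+ and 8.12 to 9.0 in KIT+. The 6 WT libraries of the Sox3 table were not regrouped and are called WT labelled THY1+ and WT labelled KIT+. The genotype difference averaged over fractions is the same whichever way they are read, and comparisons of genotypes that need a fraction are given both ways. The 6 germ cell markers (Ddx4, Dazl, Mael, Tex101, Tdrd1 and Mov10l1) were above 0 in all groups, and their summed level was 732 to 1517 FPKM.

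The genes lay on 7 chromosomes (GRCm38 positions from GENCODE M21). Dio3 (chr12:110279068-110281097) and A230065H16Rik (chr12:111406809-111412090) shared chromosome 12, and Cox6a2 (chr7:128205435-128206387) and BC049730 (chr7:24709242-24714535) shared chromosome 7. The others each had a chromosome of their own, among them Dppa3 (chr6:122626410-122630272), Cthrc1 (chr15:39076932-39087121), Ahsg (chr16:22891277-22899449) and Akap4 (chrX:7067519-7078609). RefSeq promoter windows (GRCm38.p6) were looked up for all of the genes but Ctxn3, and matched 4 of them, namely Akap4, A230065H16Rik, Ahsg and Dio3. The 250 bases before the annotated start are shown for the 3 of them whose window holds no annotated exon, since SOX proteins bind short A- and T-rich sites. Capitals mark the SOX-type core motifs AACAAT and ACAAAG, searched on both strands. The windows are chrX:7067265-7067514, chr12:111406559-111406808 and chr16:22891765-22892014, all on the plus strand, 5′ to 3′. The RefSeq start of Ahsg lies downstream of the first GENCODE start, so its window falls within an intron of the longest GENCODE transcripts.
Akap4: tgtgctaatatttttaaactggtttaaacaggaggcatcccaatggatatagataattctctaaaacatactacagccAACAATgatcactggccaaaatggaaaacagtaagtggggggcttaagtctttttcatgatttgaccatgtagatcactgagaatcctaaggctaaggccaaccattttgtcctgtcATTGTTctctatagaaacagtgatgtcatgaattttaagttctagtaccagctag
A230065H16Rik: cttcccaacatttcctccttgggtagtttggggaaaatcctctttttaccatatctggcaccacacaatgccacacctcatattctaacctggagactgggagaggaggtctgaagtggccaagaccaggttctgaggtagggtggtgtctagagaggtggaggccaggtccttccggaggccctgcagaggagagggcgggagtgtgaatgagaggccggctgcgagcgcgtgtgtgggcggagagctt
Ahsg: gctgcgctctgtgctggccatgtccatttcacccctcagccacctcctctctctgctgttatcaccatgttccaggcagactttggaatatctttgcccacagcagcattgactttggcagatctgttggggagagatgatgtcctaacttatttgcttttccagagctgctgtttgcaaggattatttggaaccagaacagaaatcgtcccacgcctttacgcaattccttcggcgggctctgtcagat
The Akap4 window shown held AACAAT once on each strand, and neither motif occurred in the A230065H16Rik or the Ahsg window. A further Akap4 window (chrX:7067960-7068179, not shown) held ACAAAG once on the plus strand. Over all 32851 windows of this length, AACAAT was present in 9.42%, ACAAAG in 16.5% and either in 24%. A match of letters is not a binding site.

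Averaged over fractions, the 9 genes were higher in Zbtb16 null than in WT libraries by 0.69 to 1.41 on the log2(FPKM + 0.1) scale, with a median of 1.01 against 0.00 for all genes tested. The single values were 1.41 for Cox6a2, 1.17 for Dppa3, 1.16 for Cthrc1, 1.03 for Ctxn3, 1.01 for BC049730, 0.88 for A230065H16Rik, 0.74 for Dio3 and Akap4 and 0.69 for Ahsg. The averaged cKO minus WT difference of the 8 genes other than Dppa3 ran from -2.31 (Cthrc1) to -0.61 (Akap4), with A230065H16Rik at -1.22, Dio3 at -0.86, Cox6a2 at -0.78, Ahsg at -0.71 and Ctxn3 and BC049730 at -0.70. Dppa3 was listed at 0 in all cKO KIT+ libraries, so its value is a bound: with the cKO libraries set at the level of 3 reads it was -1.74, and the median of the 9 genes was then -0.78 against 0.02 for all genes. All 9 genes passed an adjusted p of 0.05 (limma, Benjamini-Hochberg) and 1.5-fold in both tables, where the background was 1.55% of 22374 genes called higher in null and 2.83% of 21212 called lower in cKO libraries. Both contrasts were used to choose the genes, and nothing is read from that count.

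Of 21037 genes tested in both tables, 27 passed both thresholds as higher in null and lower in cKO libraries, the 9 genes and 18 others. They were 9% of the 300 genes called higher in null and 4.53% of the 596 called lower in cKO libraries among the genes tested in both. Why these 9 were taken from the 27 is not stated. A further 11 genes were higher in both mutants, 7 were lower in both, and Ly6a was the only gene lower in null (-1.03) and higher in cKO libraries (0.79). Among the 18 others, Phlda2 (1.09 and -1.43), Gm11542 (0.95 and -0.93), Gpx2 (0.96 and -0.91), Il20ra (0.89 and -1.05) and Rxrg (2.61 and -0.86) had the largest smaller change of the pair. The member nearest to the fold threshold of log2 0.58 was Akap4 in the Sox3 table (-0.61). Just outside lay Utf1 (adjusted p 0.0545 in the Sox3 table, limma) and Tctex1d1 (0.0538), which missed the p threshold, and Nr5a2 (-0.58), which fell just short of the fold.

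**Figure D1:**
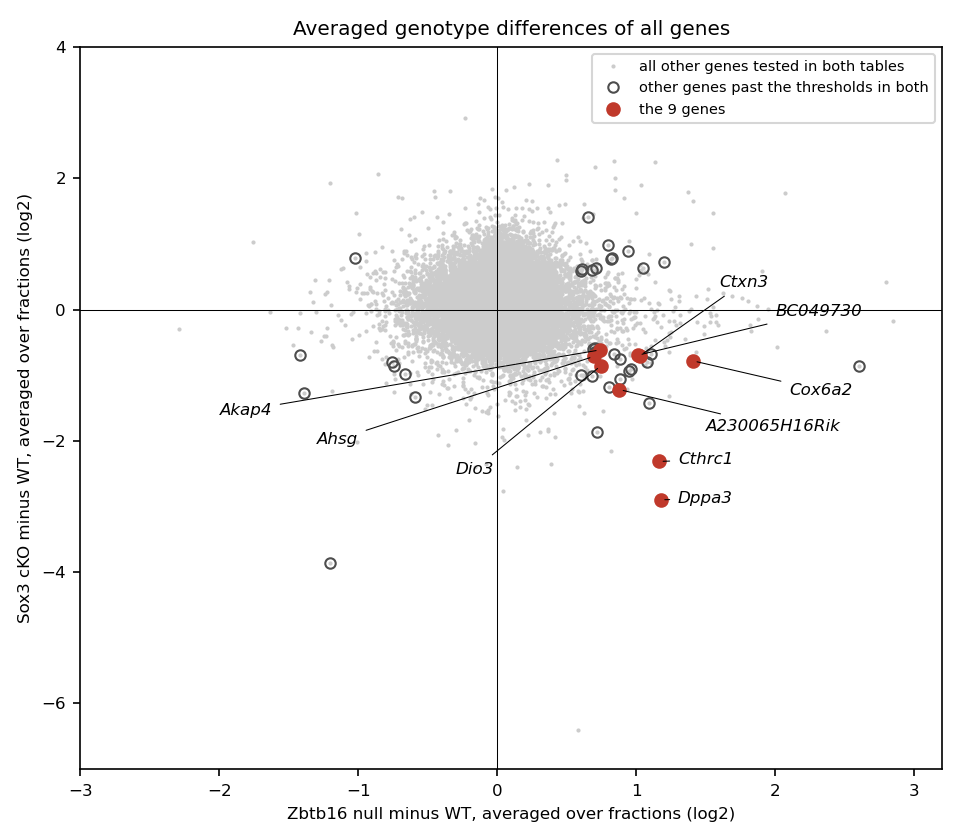
Averaged genotype differences on the log2(FPKM + 0.1) scale, Zbtb16 null minus WT on the x axis and Sox3 cKO minus WT on the y axis, for 21037 genes. The 9 genes (filled) lie in the lower right corner, as the choice requires, with Dppa3 and Cthrc1 lowest, and open circles mark the other genes past the thresholds in both tables.

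Dppa3 had no read in 4 of the 6 cKO libraries. In the Zbtb16 table it was at 0.372, 0.187 and 0.286 FPKM in WT THY1+ libraries (10, 5 and 8 reads) and at 2.75, 1.14 and 1.54 in null THY1+ libraries (69, 28 and 42 reads). All null THY1+ values were above all WT values, and the mean was 6.43 times as high. In KIT+ libraries Dppa3 was at 2.36, 1.31 and 1.82 FPKM in WT and 3.41, 1.31 and 1.5 in null cells, and these groups overlapped. Null THY1+ values overlapped with those of both KIT+ groups. Beside the cKO, Dppa3 was at 2.0, 2.22 and 2.24 FPKM (57, 27 and 27 reads) in WT labelled THY1+ and at 0.329, 0.451 and 0.479 (9, 6 and 6 reads) in WT labelled KIT+ libraries. The cKO THY1+ libraries gave 0, 2 and 2 reads (0, 0.204 and 0.201 FPKM), and none of the cKO KIT+ libraries had a read. A count of 0 there allows up to 3 reads, a level of 0.119 to 0.285 FPKM. Dppa3 in cKO KIT+ libraries was thus at least 7.58-fold lower than in WT labelled THY1+ and at least 1.48-fold lower than in WT labelled KIT+ libraries, against the floor of 3 reads per library. In cKO THY1+ libraries the ratio was 0.0411 (95% interval 0.0110 to 0.108, exact, counting error only) to WT labelled THY1+ and 0.220 (0.0548 to 0.651) to WT labelled KIT+ libraries. GENCODE lists a pseudogene, Dppa3-ps, and the authors' alignment allowed a read many positions, so reads of the copies may have been shared.

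Cthrc1 was lower in every cKO library than in any WT library. The Sox3 table had 2.92, 2.58 and 2.5 FPKM in WT labelled THY1+, 2.71, 2.63 and 2.26 in WT labelled KIT+, 0.229, 0.184 and 0.544 in cKO THY1+ and 0.957, 0.343 and 0.799 in cKO KIT+ libraries. The highest cKO value was below the lowest WT value, and the WT groups overlapped with each other. In the Zbtb16 table Cthrc1 was at 2.51, 1.71 and 3.04 FPKM in WT THY1+ and 8.71, 6.97 and 7.09 in null THY1+ libraries. The KIT+ libraries gave 2.37, 1.52 and 2.29 FPKM in WT and 3.96, 2.69 and 3.41 in null cells, again without overlap.

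A230065H16Rik, with the highest FPKM of the 9 genes together with Cthrc1, was at 3.39, 2.69 and 3.25 FPKM in WT THY1+ and 9.02, 6.91 and 7.03 in null THY1+ libraries. The KIT+ values were 1.92, 1.82 and 2.37 in WT and 2.64, 2.70 and 3.31 in null cells. Both fractions were thus higher in null mice without overlap, and null THY1+ cells stood above all other groups. Among Sox3 WT mice, labelled KIT+ libraries were at 3.83, 5.51 and 2.49 FPKM and labelled THY1+ libraries at 3.06, 1.45 and 2.59. The cKO THY1+ libraries were at 1.65, 2.21 and 1.5 and the cKO KIT+ libraries at 0.647, 0.772 and 1.03 FPKM. All cKO KIT+ values were below all WT values, while cKO THY1+ values overlapped with WT labelled THY1+ ones.

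BC049730 stood in null THY1+ cells at levels seen in no other group, 4.01, 2.70 and 2.52 FPKM against 0.851, 0.654 and 0.845 in WT THY1+ libraries. The KIT+ libraries of WT (1.11, 0.826 and 0.839) and null mice (1.42, 0.830 and 1.03) overlapped. The Sox3 table held BC049730 at 0.992, 0.817 and 1.33 FPKM in WT labelled THY1+ and 0.977, 0.859 and 0.973 in WT labelled KIT+ libraries. The cKO THY1+ libraries (0.609, 0.931 and 0.688) overlapped with both WT groups, and the cKO KIT+ libraries (0.424, 0.650 and 0.289; 14, 9 and 4 reads) lay below both.

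Ahsg and Ctxn3 were highest in null THY1+ and lowest in cKO KIT+ libraries by their means, as were Akap4, BC049730, A230065H16Rik and Dio3. Ahsg was at 2.05, 1.49 and 1.93 FPKM in WT THY1+, 4.07, 3.35 and 3.65 in null THY1+, 1.21, 0.964 and 1.03 in WT KIT+ and 1.52, 1.32 and 1.5 in null KIT+ libraries. The Sox3 table gave 1.04, 1.05 and 1.86 in WT labelled THY1+, 1.64, 2.37 and 1.98 in WT labelled KIT+, 1.33, 1.11 and 0.910 in cKO THY1+ and 0.817, 1.09 and 0.516 in cKO KIT+ libraries. The cKO groups of Ahsg overlapped with WT labelled THY1+ libraries and lay below WT labelled KIT+ ones. Ctxn3 (chr18:57468516-57478133) was at 1.02, 0.769 and 0.824 FPKM in WT THY1+, 2.60, 2.32 and 2.23 in null THY1+, 0.357, 0.425 and 0.437 in WT KIT+ and 0.812, 0.660 and 0.682 in null KIT+ libraries. Its Sox3 table values were 0.511, 0.35 and 0.302 in WT labelled THY1+, 0.732, 0.820 and 1.02 in WT labelled KIT+, 0.484, 0.370 and 0.607 in cKO THY1+ and 0.192, 0.172 and 0.230 in cKO KIT+ libraries. For Ctxn3 the groups of each genotype comparison in the Zbtb16 table did not overlap. The antisense gene 4930511M06Rik overlaps Ctxn3 and was itself called higher in null libraries (0.61, adjusted p = 0.0169, limma); the strand used in counting is not stated, so reads of this pair cannot be told apart.

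Dio3 and Akap4 had group means of at most 1.19 FPKM, and their groups lay apart in each genotype comparison of the Zbtb16 table. Dio3 was at 0.622, 0.656 and 0.487 FPKM in WT THY1+, 1.45, 1.07 and 1.03 in null THY1+, 0.138, 0.224 and 0.167 in WT KIT+ and 0.380, 0.346 and 0.231 in null KIT+ libraries. Sox3 table values were 0.232, 0.362 and 0.328 in WT labelled THY1+, 0.611, 1.32 and 1.02 in WT labelled KIT+, 0.518, 0.492 and 0.529 in cKO THY1+ and 0.122, 0.125 and 0.0832 in cKO KIT+ libraries. Dio3 was thus higher in cKO THY1+ than in WT labelled THY1+ libraries without overlap, and lower than in WT labelled KIT+ libraries. Akap4 was at 0.505, 0.407 and 0.401 FPKM in WT THY1+, 1.27, 0.936 and 0.758 in null THY1+, 0.151, 0.131 and 0.190 in WT KIT+ and 0.280, 0.243 and 0.254 in null KIT+ libraries. The cKO KIT+ libraries held 2, 1 and 3 Akap4 reads, 0.284 (0.0950 to 0.714, exact 95% interval) of the rate in WT labelled THY1+ (11, 4 and 9 reads) and 0.104 (0.0370 to 0.240) of that in WT labelled KIT+ libraries (29, 23 and 14 reads). The cKO THY1+ libraries held 17, 10 and 8 reads.

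Cox6a2 rested on the fewest reads. The WT THY1+ libraries of the Zbtb16 table held 16, 14 and 4 reads (0.807, 0.708 and 0.194 FPKM), the null THY1+ libraries 18, 22 and 23 (0.971, 1.21 and 1.15 FPKM), the WT KIT+ libraries 6, 1 and 1 and the null KIT+ libraries 14, 9 and 13. Null libraries were above WT libraries in both fractions without overlap. Sox3 table counts were 4, 3 and 1 in WT labelled THY1+, 19, 5 and 4 in WT labelled KIT+, 7, 1 and 1 in cKO THY1+ and 3, 1 and 1 in cKO KIT+ libraries. The rate in cKO KIT+ libraries was 0.205 (0.0619 to 0.538, exact 95% interval) of that in WT labelled KIT+ libraries. It was 0.711 (0.183 to 2.46) of that in WT labelled THY1+ libraries, on 5 and 8 reads in all. The intervals given for Dppa3, Akap4 and Cox6a2 cover counting error only. They are a description, since the genotype difference chose the genes.

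**Figure D2:**
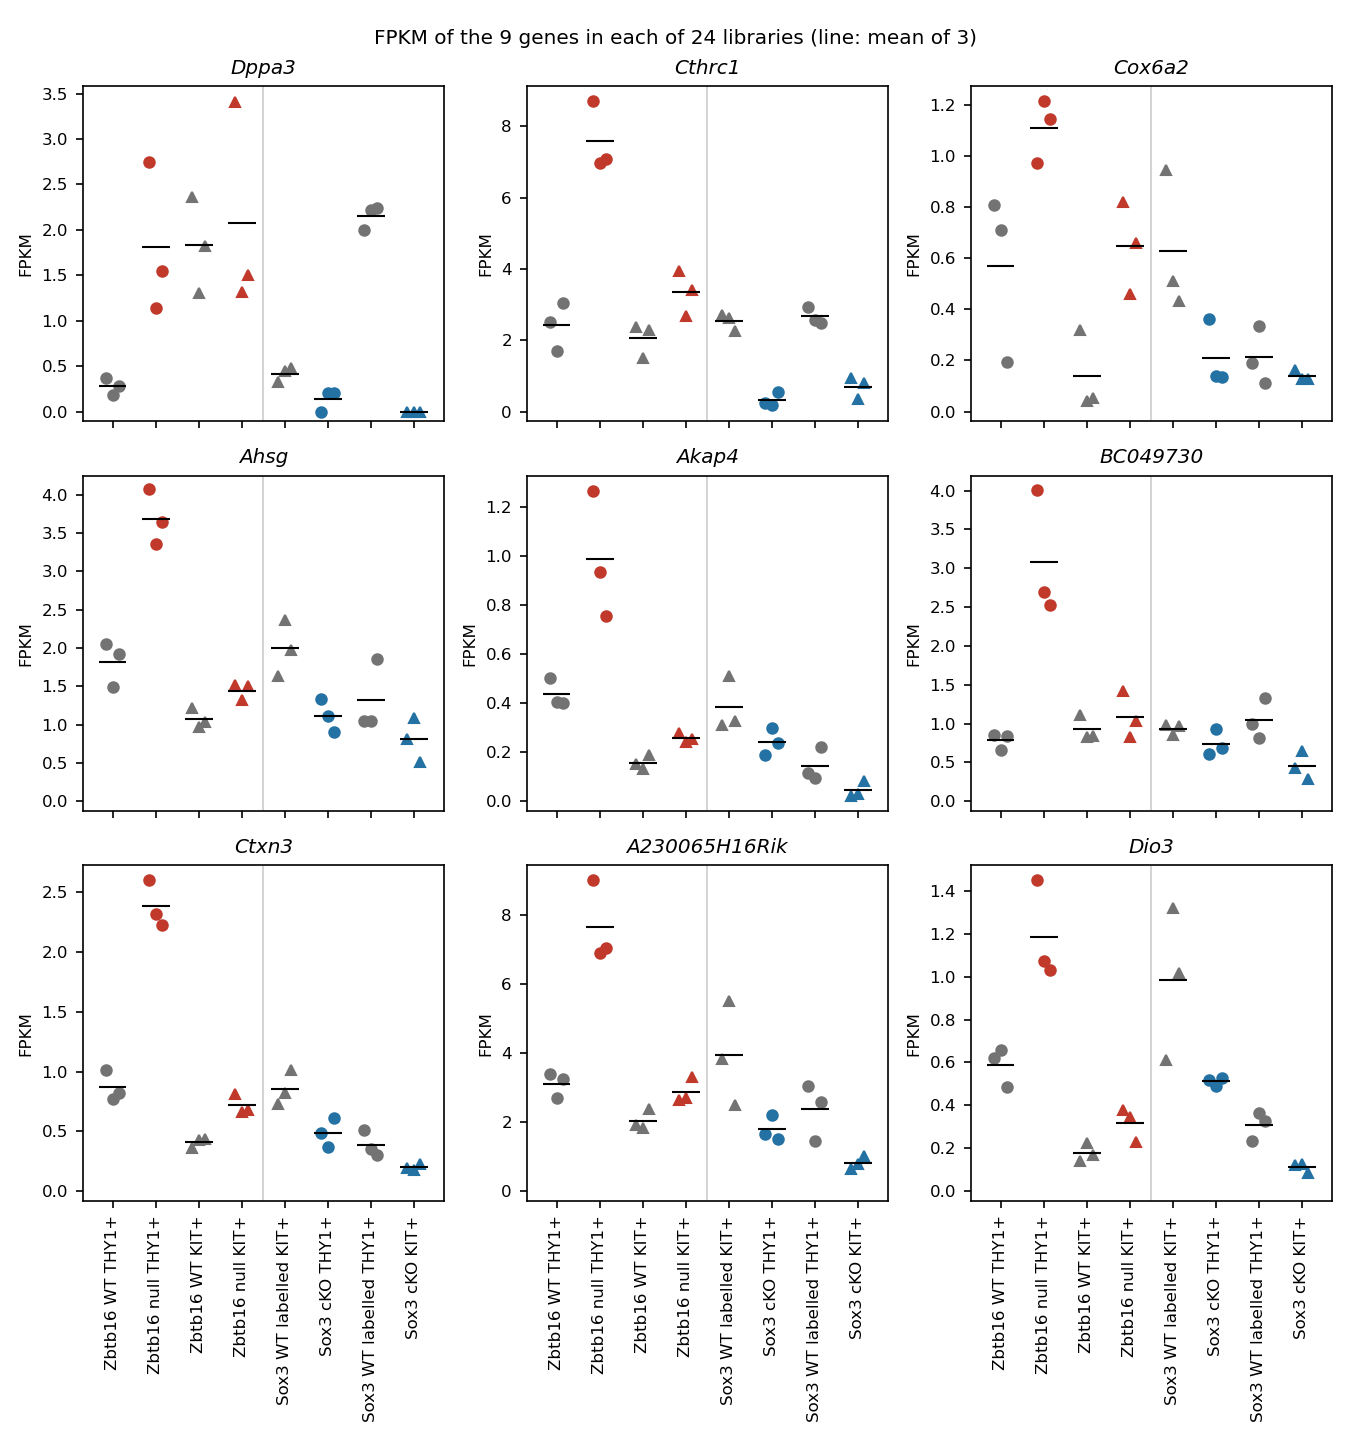
FPKM of each gene in the 24 libraries, 3 per group, with the group mean as a line; each panel has its own linear axis. Grey points are WT, red Zbtb16 null and blue Sox3 cKO libraries, circles are labelled THY1+ and triangles KIT+, and each cKO group stands beside the WT group that is like it in Thy1 and Kit. Null THY1+ libraries are highest for Cthrc1, Cox6a2, Ahsg, Akap4, BC049730, Ctxn3 and A230065H16Rik, and cKO KIT+ libraries hold no read of Dppa3.

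By fraction, 9 of 9 genes were higher in null than in WT THY1+ libraries without overlap of the groups, a pattern shown by 15.5% of all genes, and 7 of 9 were so in KIT+ libraries, where it was shown by 8.73%. The log2 differences were 0.90 to 2.26 (median 1.27) in THY1+ and 0.09 to 1.81 (median 0.49) in KIT+ cells. Cox6a2 was the gene with the larger difference in KIT+ cells. In the Sox3 table read as labelled, 9 of 9 genes were lower in cKO than in WT KIT+ libraries (24.8% of all genes), while in THY1+ libraries 2 were lower (24.5% of all genes), 1 was higher (26.1%) and 6 overlapped. Set against the WT group that is like them in Thy1 and Kit, the cKO THY1+ libraries were lower for 8 genes (12% of all genes) and the cKO KIT+ libraries for 7 genes (17.2%). The exceptions were BC049730 in the former and Cox6a2 and Ahsg in the latter, where the groups overlapped. These counts come from the contrasts that chose the genes, and nothing is read from them.

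**Figure D3:**
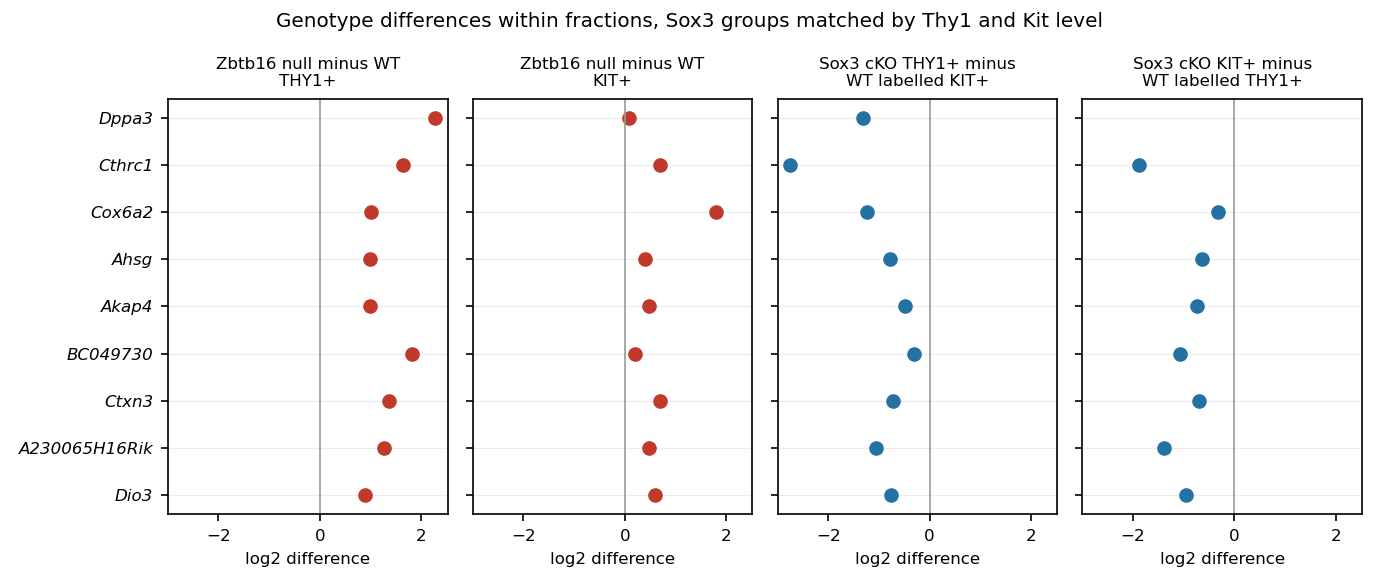
Log2 differences (mutant minus WT) of the 9 genes within fractions, Zbtb16 table in red and Sox3 table in blue, with each cKO group set against the WT group like it in Thy1 and Kit. Values lie right of 0 in the Zbtb16 panels and left of 0 in the Sox3 panels, and Dppa3 in cKO KIT+ cells is not drawn because no library held a read.

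Markers of other cells also differed between groups. In null against WT THY1+ libraries, the 6 germ cell markers had a median log2 difference of 0.31 (6 of 6 above 0, 0 called by limma), and summed to 1185 to 1517 FPKM in null and 1027 to 1222 in WT libraries. Sertoli, Leydig and stromal markers were all below 0 there (medians -0.67, -0.84 and -0.66, 0 called of 8, 6 and 8), and the 7 macrophage markers were too (median -0.76, 1 called), with a summed level of 356 to 675 FPKM in null and 770 to 867 in WT libraries. Endothelial and T cell markers had medians of -0.49 and -0.38 (0 called), markers of undifferentiated spermatogonia -0.03 (2 of 13 called lower) and of differentiating spermatogonia -0.12 (0 of 7 called). The KIT+ libraries differed the other way: in null against WT, germ cell markers had a median of -0.20 (6 of 6 below 0), and Leydig, endothelial, stromal and Sertoli markers 0.60, 0.46, 0.73 and 0.19 (6 of 6, 6 of 6, 8 of 8 and 6 of 8 above 0; 0 called by limma in these lists). In those libraries 7 of the 9 genes were higher in null mice without overlap, as were 8.73% of all genes, and nothing is read from this count. Averaged over fractions in the Sox3 table, the germ cell markers had a median of -0.37 (6 of 6 below 0, 1 called lower). Leydig, Sertoli, stromal and endothelial markers had medians of 0.86, 0.63, 0.76 and 0.62, with 4 of 6, 3 of 8, 3 of 8 and 3 of 6 called higher. Leydig markers summed to 2493 to 4941 FPKM in cKO KIT+ and 1239 to 2004 in WT labelled THY1+ libraries. Macrophage and T cell markers had medians of 0.23 and 0.03 (0 of 7 and 1 of 6 called), undifferentiated spermatogonia markers 0.15 (2 of 13 called lower) and differentiating spermatogonia markers -0.30 (2 of 7 called lower). No marker of these lists was at 0 in all libraries of a group. The part of these cells in the differences of the 9 genes was not tested. In bulk RNA, fewer cells of a type and less RNA per cell cannot be told apart.

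The difference between fractions was not used to choose the genes and was tested. Its test shares the estimate of the spread with the averaged comparisons, where all 9 genes passed an adjusted p. They may therefore be called more easily here than other genes, and the shares of all genes are not a matched background. In WT mice of the Zbtb16 table, 6 of the 9 genes were lower in KIT+ than in THY1+ libraries, against 14% of all genes, and Dppa3 was higher, as were 7.21% of all genes (21.2% called in either direction; limma, Benjamini-Hochberg). The log2 differences were -1.32 for Dio3 (adjusted p = 7.83e-04), -1.06 for Akap4 (0.00184), -0.93 for Ctxn3 (0.00129), -0.71 for Ahsg (0.00661), -1.52 for Cox6a2 (0.0308) and -0.59 for A230065H16Rik (0.0186). Dppa3 was higher by 2.33 (95% interval 1.47 to 3.19, adjusted p = 0.00112, limma), in 3 of 3 KIT+ libraries above all THY1+ libraries. Cthrc1 (-0.21, interval -0.73 to 0.30) and BC049730 (0.21, -0.30 to 0.72) did not pass. Cell markers differed between these libraries too (limma). Called higher in KIT+ were 6 of 6 Leydig (median 4.12), 2 of 8 Sertoli and 4 of 7 differentiating spermatogonia markers. Called lower were 7 of 7 macrophage (median -8.33), 5 of 6 T cell, 3 of 8 stromal and 1 of 6 endothelial markers. So were 12 of 13 markers of undifferentiated and 1 of 7 of differentiating spermatogonia. Of 6 germ cell markers, 0 were called (median -0.17). The part of cell content in any fraction difference was not tested. The Dppa3 call held under each alternative run. With 1 added to FPKM in place of 0.1 it was the only call left, and A230065H16Rik (without WT KIT+ replicates 1 or 2 or WT THY1+ replicates 1 or 3; adjusted p 0.0536 to 0.0718, limma) and Cox6a2 (without WT KIT+ replicates 2 or 3 or WT THY1+ replicates 1 or 2; 0.0950 to 0.118) lost their calls when 1 library was left out.

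In Zbtb16 null mice, 7 of 9 genes were lower in KIT+ cells, against 16% of all genes (29.2% called in either direction; limma). Differences ran from -1.62 for Dio3 to -1.16 for Cthrc1, and BC049730 (-1.41, adjusted p = 6.09e-04, limma) and Cthrc1 (adjusted p = 0.00232), which did not pass in WT mice, were among them. Dppa3 (0.15, interval -0.71 to 1.01) and Cox6a2 (-0.72, -1.75 to 0.31) did not pass. Whether a gene's fraction difference itself changed with genotype was tested as an interaction. None of the 9 genes passed in the Zbtb16 table (adjusted p 0.0906 to 0.572, limma), where 7 genes in all, 0.0313%, were called. An unadjusted p under 0.05 (limma) was found for 6 of the 9 and for 5014 of the 22374 genes tested. The estimates for Dppa3 (-2.18, 95% interval -3.40 to -0.96, adjusted p = 0.0938, limma) and BC049730 (-1.62, -2.34 to -0.91, adjusted p = 0.0906) were the largest. Without null KIT+ replicate 1, both were called (-2.59 and -1.81, adjusted p = 0.0405 each, limma). With the replicate number added to the fit as a block, 4 genes were called. They were Dppa3 (adjusted p = 0.0126, limma), BC049730 (0.0137), Cthrc1 (0.0209) and A230065H16Rik (0.0266).

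The cKO libraries, whose Thy1 and Kit levels matched their labels, gave 5 of 9 genes called lower in KIT+ than in THY1+ cells, against 12.2% of all genes (22.7% in either direction; limma). They were Dio3 (-1.55, adjusted p = 0.00104), Akap4 (-1.25, 0.00525), Ctxn3 (-0.96, 0.0106), A230065H16Rik (-1.05, 0.0316) and Dppa3. For Dppa3 no fold is given, since all cKO libraries were at or under the floor of 3 reads, and its call was lost in 11 of 12 fits without 1 library. With 1 added to FPKM in place of 0.1, 0 of the 5 calls were left, and with replicates 2 and 3 alone 2 were left (Dio3 and Dppa3). Cthrc1 was the gene with the opposite sign (0.94, interval 0.17 to 1.70, adjusted p = 0.0659, limma), and it passed without cKO KIT+ replicate 2 (1.32, 0.0116) or cKO THY1+ replicate 3 (1.29, 0.0187). Cthrc1 also passed with the replicate block (adjusted p = 0.0477, limma). BC049730 (-0.64, -1.23 to -0.04), Ahsg (-0.46, -1.10 to 0.18) and Cox6a2 (-0.31, -1.09 to 0.47) did not pass, though BC049730 did without cKO KIT+ replicate 2 (-0.88, adjusted p = 0.0325, limma). The A230065H16Rik call was lost without cKO KIT+ replicates 1 or 2 or any 1 of the cKO THY1+ libraries (adjusted p 0.0520 to 0.103, limma).

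Among Sox3 WT mice, taken as labelled, 4 genes were higher in labelled KIT+ than in labelled THY1+ libraries, against 13.1% of all genes, and Dppa3 was lower, as were 6.53% (limma). The 4 were Dio3 (1.37, adjusted p = 0.00258), Cox6a2 (1.22, 0.0266), Akap4 (1.0, 0.0192) and Ctxn3 (0.98, 0.0104), and the value for Dppa3 was -2.13 (0.0013). Each of the 5 had the opposite sign in WT mice of the Zbtb16 table, as had Thy1 and Kit. The calls of Akap4 (without labelled KIT+ replicate 2 or labelled THY1+ replicates 1 or 2; adjusted p 0.0647 to 0.0802, limma) and Cox6a2 (without labelled KIT+ replicate 1 or labelled THY1+ replicates 1 or 3; 0.0688 to 0.1) were lost when 1 library was left out. The Dppa3 call was lost with 0.01 added to FPKM (-2.35, adjusted p = 0.0905, limma), and 2 of the 5 calls were left with 1 added, Dio3 and Dppa3. With the WT groups as labelled, 5 of the 9 genes showed an interaction, all lower, against 20.9% of all genes: Dio3 (-2.92, adjusted p = 7.28e-05, limma), Akap4 (-2.25), Ctxn3 (-1.95), A230065H16Rik (-1.75) and Cox6a2 (-1.53). That reading rests on labels that Thy1 and Kit contradict, and under it 37.5% of all genes were called in either direction. With the WT groups exchanged, none of the 9 genes showed an interaction (adjusted p 0.159 to 0.984, limma). Nor did any of the 21212 genes, 0%, while 1 of the 9 and 2709 of all genes had an unadjusted p under 0.05. The 1 was Dppa3, which was called with 1 added to FPKM and without cKO THY1+ replicate 1 (adjusted p = 0.00234, limma). All cKO libraries were under the floor of 3 reads for Dppa3, so the cKO part of its interaction is not measured well.

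**Figure D4:**
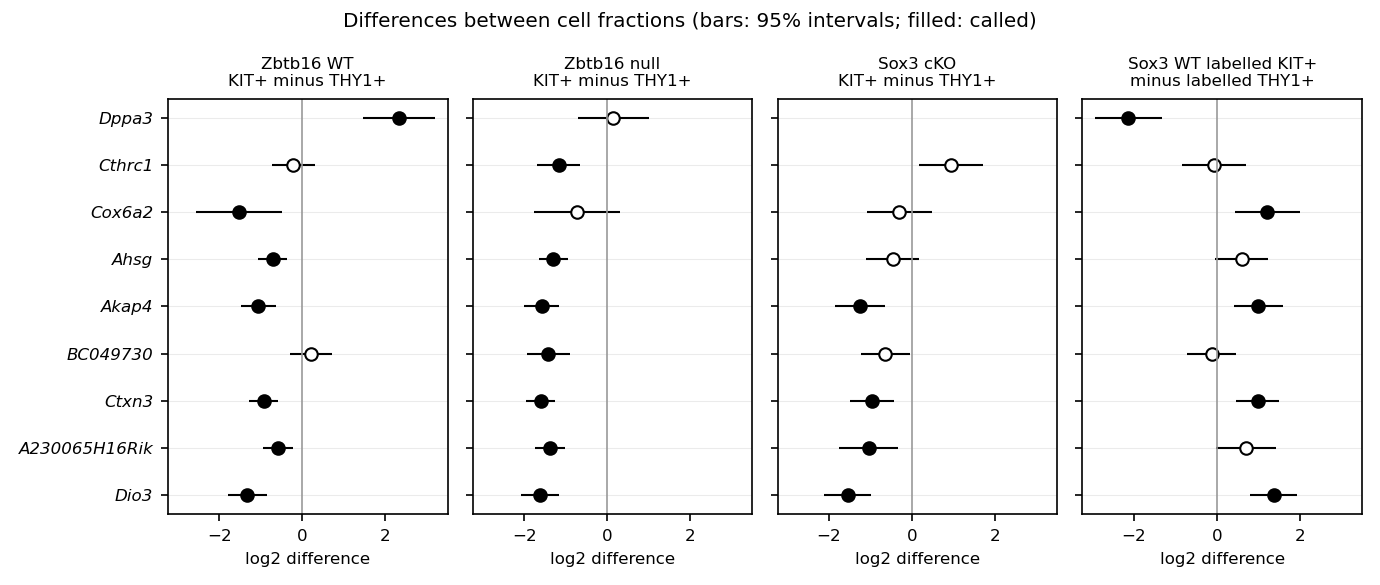
Log2 differences between fractions (labelled KIT+ minus labelled THY1+) with 95% intervals from limma, for WT and null mice of the Zbtb16 table and cKO and WT mice of the Sox3 table. Filled points were called; Dio3, Akap4 and Ctxn3 lie left of 0 in the first 3 panels and right of 0 in the Sox3 WT panel, and Dppa3 is not drawn in cKO mice.

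Lists of genes related to the members by function are given beside the share of all genes called, which was 1.55% higher and 0.746% lower in null and 7.49% higher and 2.83% lower in cKO libraries (limma, averaged over fractions). Of 19 early germ cell and pluripotency genes tested with Dppa3 in mind, 4 were higher in null libraries averaged over fractions and 0 lower (median 0.19 against 0.00 for all genes): Utf1 (1.1), Dppa4 (0.84), Sox2 (0.72) and Tfap2c (0.70). Of 18 tested in cKO against WT libraries, 0 were higher and 2 lower (median -0.05 against 0.02), Lin28a (-1.21) and Tfap2c (-0.65). Tfap2c, which encodes a factor of primordial germ cell specification, thus passed in both tables with opposite signs. Of 8 genes of DNA methylation, 0 passed in the Zbtb16 table (median -0.05), and Tet1 (1.02) and Tet2 (0.89), which oxidise methylcytosine, were higher in the Sox3 table (median 0.19).

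Of 12 thyroid hormone genes, Rxrg, which encodes a retinoid X receptor, was higher in null libraries (2.61, adjusted p = 1.23e-05, limma), at 6.12 to 7.89 FPKM in null and 0.390 to 0.792 in WT THY1+ libraries (medians of the list 0.04 and, in the Sox3 table, 0.29). Rxrg was lower in cKO libraries (-0.86, adjusted p = 0.0473, limma), where the receptors Thrb (0.99) and Thra (0.64) and the activating deiodinase Dio2 (0.72) were higher. In the imprinted domain of Dio3, the other 6 genes gave 0 calls averaged over fractions in the Zbtb16 table (median 0.15). Dio3os, which lies 896 bases from Dio3 on the other strand, was called higher in null THY1+ cells (1.13, adjusted p = 0.0469, limma), at 0.360 to 0.482 FPKM against 0.0996 to 0.156. Meg3 (0.99) and Rian (0.64), noncoding RNAs of the domain, were higher in cKO libraries (5 tested, median 0.53), the direction opposite to Dio3.

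Of 16 cytochrome c oxidase subunits, 0 passed in the Zbtb16 table (median 0.02), and 3 of 15 were lower in cKO libraries (median -0.37): Cox8c (-1.06), Cox7a2 (-0.64) and Cox4i1 (-0.59). Cox6a1, the form of the subunit made in most tissues, was at 134 to 222 FPKM in the Zbtb16 table. Of 13 fibrous sheath and spermatid genes, Ldhc, a germ cell lactate dehydrogenase, was higher in null libraries (1.35), Tnp1, a transition protein, was lower (-1.27), and the median was 0.14. Tssk6, a spermatid kinase, was lower in cKO libraries (-0.62; median -0.41). Of 15 planar cell polarity genes, Prickle1 was higher in both tables (0.68 and 0.60), and Ror1 (1.24), Wnt5a (0.85) and Ror2 (0.71) were higher in the Sox3 table (medians 0.03 and 0.22), where Cthrc1 was lower. Of 6 liver secreted proteins, Fetub was higher in null libraries (1.31; median 0.29), and 0 of 7 passed in the Sox3 table (limma; median -0.40).

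Within 100 kb of a member, 39 genes were tested in the Zbtb16 table. Of these, 2 were called in its averaged comparison, where 2.3% of all genes were called. In the averaged Sox3 comparison 3 were called, where 10.3% of all genes were called. Nanog, Gm10420 and Gm10224 near Dppa3, Ceacam10 and Gm4763 near BC049730, 1700011I03Rik near Ctxn3 and Dio3os near Dio3 were not tested there. Fetub, the paralog of Ahsg that lies 18885 bases from it, was higher in null (adjusted p = 0.00165, limma) but at 0.13 in cKO libraries (adjusted p = 0.742). The other call in the Zbtb16 table was 4930511M06Rik. Those in the Sox3 table were Tex101, near BC049730, which was lower (-0.69), while Tgfb1i1, near Cox6a2 (0.78), and Tnfaip2, near A230065H16Rik (0.59), were higher. No gene tested within this distance of Dppa3, Cthrc1, Akap4 or Dio3 was called in either averaged comparison. The only neighbour of Dio3 was tested in the Zbtb16 table alone.

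Over the 24 libraries, with log2 values centred within each table, each gene was compared with the mean of the other 8. The Pearson r was 0.91 for A230065H16Rik, 0.86 for Ahsg and Ctxn3, 0.84 for BC049730, 0.81 for Akap4, 0.77 for Dio3, 0.71 for Cthrc1, 0.64 for Cox6a2 and 0.36 for Dppa3. Dppa3 had the lowest r. The genes outside the 9 most like their mean profile were Cela2a (r = 0.94), Phlda2 (0.93), Samd13 (0.92), Ctrc (0.92) and Ddx25 (0.92). Of these, Phlda2 and Samd13 passed both thresholds. All these points share the same libraries and the contrast that chose the genes, and the r values are a description.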

How the data were processed

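The authors sequenced ribosome-depleted stranded libraries as single reads and aligned them to mm10 with Novoalign, with a setting that lets a read take many positions. The deposited values are FPKM computed by the authors, in 1 table per knockout; the authors tested counts with DESeq2, and the strand used in counting is not given in the sources used here. Samples were grouped by their labels alone.

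Since FPKM are not counts, limma 3.58.1 under R 4.3.3 was run on log2 values after adding 0.1: 4 group means per table, eBayes with trend and robust settings, two-sided tests and Benjamini-Hochberg adjustment over the genes whose mean FPKM reached 0.1 (22374 and 21212 genes). A call is an adjusted p of at most 0.05 and at least 1.5-fold, and the added 0.1 understates changes of low genes. Depth was estimated from the spacing of low FPKM values, with transcript lengths taken from GENCODE M21. The lengths of the 9 genes were then searched between 0.6 and 1.4 times those of GENCODE M21. Intervals and floors of 3 reads cover counting error only. The fits were tested on simulated data. Alternatives were another pseudocount, filters, scaling, a replicate block, only the groups compared, replicates 2 and 3 alone and leaving out each library.

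The 9 genes and the 8 pathway and 9 marker lists were chosen with earlier results of these data known. Named genes are the 9 genes, the targeted genes and sorting markers, list members called in a genotype comparison (at most 4) or else the most abundant, genes within 100 kb, the 5 most alike, and genes past or just outside both thresholds. Utf1, Tctex1d1 and Nr5a2 stand for the latter, and Cox6a1, Six4 and Hoxb13 were named after their values were seen. The study's own comparisons were not used. Some genes the rule names are not reported here.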

Additional observations from a re-analysis of the deposited data

Results flagged for a closer look

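In 4 of the genes the WT libraries of the 2 tables differed between labelled KIT+ and labelled THY1+ in opposite directions, with no overlap of the groups in either table. Dppa3 had a log2 difference of 2.33 beside the Zbtb16 null and -2.13 beside the Sox3 cKO. Akap4 had -1.06 and 1.0, Ctxn3 -0.93 and 0.98, and Dio3 -1.32 and 1.37. Thy1 and Kit themselves were turned in the WT libraries of the Sox3 table (Thy1 at 0.213 to 0.254 FPKM in libraries labelled THY1+). The difference between the tables was not tested, since they were normalised separately.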

How the results depend on the processing

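The 9 genes kept the sign of both averaged genotype differences under each alternative that could be fitted (6 and 3 of them could be tested at a mean FPKM of at least 1). With a pseudocount of 1, 3 of 9 passed the thresholds in each table, and with replicates 2 and 3 of the Sox3 table alone 3 did. Leaving out 1 library left 6 to 9. Of the fraction and interaction values of single genes, 53 lost and 13 gained a call over all alternatives, and no called value changed sign. In fraction differences called with the main settings, members called were 1 (pseudocount 1) and 4 (mean FPKM of at least 1) of 7 in Zbtb16 WT, 0, 1 and 2 (the same and replicates 2 and 3 alone) of 5 in Sox3 cKO, and 2, 3, 0 and 3 (pseudocount 1, pseudocount 0.01, mean FPKM of at least 1, replicates 2 and 3 alone) of 5 in Sox3 WT. With pseudocount 1 the Sox3 interaction called 1 gene in place of 0, and with the WT groups as labelled, a choice made after seeing the data, 5. Over all genes, pseudocount 1 gave 565, 25, 157 and 1024 calls in the Zbtb16 THY1+, KIT+ and averaged and the Sox3 averaged comparison, in place of 890, 58, 514 and 2188; a mean FPKM of at least 1 gave 468 in THY1+ and 244 in the averaged Zbtb16 comparison, the KIT+ groups alone gave 2, and replicates 2 and 3 alone gave 597 in the Sox3 averaged comparison. The cause was not tested.

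Leaving out each library, calls ranged from 5 to 7 (Zbtb16 WT), 7 to 7 (null), 0 to 2 (Zbtb16 interaction; 2 without null KIT+ replicate 1), 3 to 5 (cKO; 3 without KIT+ replicate 1 or THY1+ replicate 2), 3 to 5 (Sox3 WT; 3 without labelled THY1+ replicate 1) and 0 to 1 (Sox3 interaction). Over all genes they ranged from 295 to 922 (THY1+; 335 and 362 without WT THY1+ replicates 1 and 2, 369 without null THY1+ replicate 3), 25 to 42 (KIT+), 340 to 488 (Zbtb16 averaged) and 1589 to 2395 (Sox3 averaged); null THY1+ replicate 1 gave the 295 and the 340.

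Same-numbered libraries correlated with a mean r of 0.326 (16 of 18 pairs over 0.1) in the Zbtb16 and 0.147 (12 of 18) in the Sox3 table. Other pairs of libraries from different groups had a mean r of -0.164 (5 of 36) and -0.073 (4 of 36). The labels give only replicate numbers, and the main fits did not take them as pairs. With a replicate block, 4 genes (Dppa3, BC049730, Cthrc1 and A230065H16Rik) were called in the Zbtb16 interaction in place of 0, and all-gene calls rose to 1980 in THY1+ and 513 in KIT+ cells. Cthrc1 passed in the cKO fraction difference with the block (0.94, adjusted p = 0.0477, limma). The block left the other counts within 1.5 times.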

Other observations

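Among the 18 other genes that passed the thresholds as higher in null and lower in cKO libraries were transcription factor genes of several families. Six4 had averaged log2 differences of 1.07 and -0.80, Hoxb13 0.72 and -1.87, Tfap2c 0.70 and -0.65, and Rxrg 2.61 and -0.86. In THY1+ libraries of the Zbtb16 table, Six4 was at 4.27 to 5.71 FPKM in WT and 9.23 to 12.5 in null cells. In the Sox3 table it was at 4.78 to 6.82 FPKM in WT labelled KIT+ and 1.6 to 3.03 in cKO THY1+ libraries. These genes were picked for description after their values were seen, and no enrichment was tested.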
